A study of Homo sapiens with 9 samples.

Results

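HKDC1 (hexokinase domain containing 1), the other hexokinases HK1, HK2 and HK3, and the glucose transporters SLC2A1, SLC2A2, SLC2A3, SLC2A6 and SLC2A10 were examined as a set of 9 genes out of the 20030 genes that were measured. They were selected on their gene symbols, and all 9 were found. The list of symbols was drawn up with counts and fold changes of these same libraries known, and which of those values it was chosen by is not recorded. Every comparison of the 9 genes between the lines is therefore given as a description. RNA was sequenced from MHCC97L, a cell line of human hepatocellular carcinoma (HCC), and from MHCC97L-SRC and MHCC97L-OXA, which were derived from it by drug selection, in 3 libraries per line and 9 in all. MHCC97L-SRC had been exposed to rising concentrations of saracatinib, an inhibitor of Src family kinases, until it was stably resistant to 4 μmol/L. MHCC97L-OXA was stably resistant to 2 μmol/L oxaliplatin, a platinum compound that crosslinks DNA. All lines were grown in DMEM with fetal bovine serum, 1 resistant line was sequenced per drug, and the labels name the drug as its treatment without saying whether it was present at harvest. The study's text speaks of independent experiments for MHCC97L and MHCC97L-SRC, while the labels do not say whether the libraries of a line came from separate cultures. Where they did not, the p-values measure only the spread between these libraries, which may be technical.

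Glucose enters cells through facilitative transporters of the SLC2A (GLUT) family, and hexokinases then phosphorylate it to glucose-6-phosphate, which traps it inside the cell and commits it to glycolysis, the pentose phosphate pathway or glycogen. HK1 is the widely expressed hexokinase, HK2 is the form of muscle, fat and many tumors, and HKDC1 lies next to HK1 on the same chromosome and is the most recently described member of the family. Normal hepatocytes take up glucose through GLUT2 (SLC2A2), and HCC cells commonly express HK2 and GLUT1 (SLC2A1).

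The gene counts of a library summed to 16970486 at the lowest and 18209213 at the highest, and 3 counts, the smallest amount treated as detectable, corresponded to 0.165 to 0.177 CPM (counts scaled to library size). The libraries of MHCC97L varied most. The biological coefficient of variation was 0.418 and 0.400 in the comparisons of MHCC97L-SRC and MHCC97L-OXA with MHCC97L, and 0.183 between the resistant lines. MHCC97L replicate 1 depended most strongly on GC content, as its deviation from the mean library correlated with that of the genes at a Spearman's rho of -0.781. MHCC97L-SRC replicates 2 and 1 followed with the opposite sign, at 0.698 and 0.543, and the remaining libraries lay between -0.255 and 0.310. Genes are not independent replicates, so this is a description. For the genes of the set that were tested, the fold changes against MHCC97L are therefore given with and without MHCC97L replicate 1. ALB, AFP, APOB and TTR, which define hepatocytes, had 0 counts in all 9 libraries, and of the 9 hepatocyte markers 0 in MHCC97L and 2 in each resistant line were above 3 counts in every library of the line. The 5 epithelial markers summed to between 2988 and 6377 CPM in every library, nearly all of it from KRT8 and KRT18. The others were scarce, with 0 to 11 counts per library for KRT19, 0 to 2 for EPCAM and 2 to 19 for CDH1. The fibroblast list summed to 106.8 to 202.0 CPM in the MHCC97L libraries, 70.4 to 89.7 CPM in those of MHCC97L-SRC and 137.5 to 153.9 CPM in those of MHCC97L-OXA. COL1A1, DCN and LUM were detected in every library. COL3A1 had 1 to 9 counts per library, COL1A2 had 2 counts in MHCC97L replicate 1 only, and PDGFRA had 1 count in MHCC97L-OXA replicate 3 only. The endothelial list stayed between 0.989 and 2.22 CPM. Of the leukocyte list PTPRC, CD3E, LYZ and MS4A1 were at 0 in all libraries, while CD14 had 16 to 20 counts in the MHCC97L libraries, 97 to 104 in those of MHCC97L-SRC and 79 to 91 in those of MHCC97L-OXA. The part of these marker genes in the results was not tested.

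Windows of 300 bases around a start site, 250 bases before it and 50 from it on, were found for 8 of the 9 genes in RefSeq (GRCh38.p14), SLC2A3 being the exception. The first window listed for a gene was read, and any other start site of it was not. The window of HKDC1 is shown because its transcript was not detected in one of the resistant lines, and those of HK2 and SLC2A1 because they are the inducible hexokinase and the most abundant transporter. The windows are chr10:69220082-69220381 (+ strand) for HKDC1, chr2:74833877-74834176 (+ strand) for HK2 and chr1:42958819-42959118 (- strand) for SLC2A1, each printed 5′ to 3′ along its gene. Capitals mark matches on either strand to the core of the hypoxia response element, spelled ACGTG. They also mark the CCAAT box, spelled as it is named. Finally they mark the TATA box, searched as TATAAA, together with the Sp1-type GC box, searched as GGGCGG.
HKDC1: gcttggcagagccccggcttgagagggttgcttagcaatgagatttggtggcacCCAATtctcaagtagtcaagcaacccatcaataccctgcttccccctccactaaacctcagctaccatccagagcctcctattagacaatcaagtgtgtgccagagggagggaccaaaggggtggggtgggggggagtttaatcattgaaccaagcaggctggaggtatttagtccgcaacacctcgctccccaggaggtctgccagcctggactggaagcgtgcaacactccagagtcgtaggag
HK2: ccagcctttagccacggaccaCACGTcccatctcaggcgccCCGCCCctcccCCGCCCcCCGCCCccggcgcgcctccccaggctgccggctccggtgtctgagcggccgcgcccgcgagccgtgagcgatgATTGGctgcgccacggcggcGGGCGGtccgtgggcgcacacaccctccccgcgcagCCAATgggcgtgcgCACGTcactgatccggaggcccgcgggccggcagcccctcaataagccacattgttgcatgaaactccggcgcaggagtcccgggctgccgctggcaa
SLC2A1: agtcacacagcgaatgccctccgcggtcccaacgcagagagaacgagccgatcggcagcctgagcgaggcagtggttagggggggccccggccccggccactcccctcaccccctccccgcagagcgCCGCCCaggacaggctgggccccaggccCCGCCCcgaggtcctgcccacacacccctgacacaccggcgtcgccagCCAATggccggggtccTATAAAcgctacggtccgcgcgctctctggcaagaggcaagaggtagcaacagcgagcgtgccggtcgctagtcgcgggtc
The HKDC1 window held a single match, a CCAAT box that began 196 bases before the start site. The HK2 window held 2 hypoxia cores, 2 CCAAT boxes and 4 GC boxes, and the SLC2A1 window held a TATA box, a CCAAT box and 2 GC boxes. Across 35116 promoter windows of the same length, the hypoxia core was present in 21.4%, the CCAAT box in 34.6%, the TATA box in 11.5% and the GC box in 45.0%. The palindromic E-box, spelled CACGTG and overlapping the hypoxia core wherever it occurs, was present in 7.26% of all windows and in none of the 8. The windows also differed in CpG dinucleotides, with 5 in HKDC1, 1 in HK1, 38 in HK2 and 30 in SLC2A1, against a median of 14 over all windows. A match describes the letters of the window only.

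HKDC1 was the hexokinase whose counts differed most clearly between the lines, and it was scarce in all of them. In GENCODE release 29 (GRCh38) it spans 69220303 to 69267559 of chromosome 10, + strand. The 3 MHCC97L libraries held 38, 31 and 30 HKDC1 counts, the 3 MHCC97L-SRC libraries held 0, 0 and 0, and the 3 MHCC97L-OXA libraries held 9, 3 and 2. The lines thus did not overlap in counts, with MHCC97L highest, MHCC97L-OXA between and MHCC97L-SRC at 0. In FPKM, which accounts for transcript length, HKDC1 was at 0.275, 0.189 and 0.259 in MHCC97L, was listed at 0 in the MHCC97L-SRC libraries, and was at 0.0865, 0 and 0.0195 in MHCC97L-OXA. MHCC97L-OXA replicate 2 was listed at 0 despite its 3 counts, so that on this scale the resistant lines overlapped.

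Pooled over the libraries of a line, HKDC1 stood at 1.85 CPM (95% exact Poisson interval 1.51 to 2.26) in MHCC97L and at 0.260 CPM (0.142 to 0.436) in MHCC97L-OXA. The 0 counts of MHCC97L-SRC allow up to 0.0711 CPM by the same interval. These intervals cover counting error only. Against the detection limit of 3 counts per library, HKDC1 was at least 10.7-fold lower in MHCC97L-SRC than in MHCC97L, and at least 9.84-fold lower without MHCC97L replicate 1. MHCC97L exceeded MHCC97L-OXA by a ratio of 7.14 (95% exact interval 4.06 to 13.5), and the fitted log2 fold change of MHCC97L-OXA against MHCC97L was -2.78 (SE 0.58). MHCC97L-OXA replicate 1 held 9 of the 14 counts of its line. Without it the pooled level of MHCC97L-OXA was 0.140 CPM, the ratio was 13.2 (95% exact interval 5.49 to 41.7), and the fitted log2 fold change was -3.65. Without MHCC97L replicate 1 the ratio was 6.57 (3.63 to 12.7) and the fitted log2 fold change -2.64. The pooled intervals of MHCC97L-OXA and MHCC97L-SRC over all 3 libraries did not meet, but MHCC97L-OXA replicates 2 and 3 lay at or under 3 counts. The filter on low counts kept HKDC1 out of the test between the resistant lines. In bulk RNA, fewer cells with a transcript and less transcript per cell cannot be told apart. Of the 3640 windows of 50 bases in the longest HKDC1 transcript, 0 were found in transcripts of HK1, HK2 or HK3.

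HK1, which binds the outer mitochondrial membrane, was the most abundant hexokinase in every library by FPKM. Its gene lies on chromosome 10 from 69269984 to 69401884 on the + strand, 2425 bases downstream of HKDC1. HK1 had 4285, 5115 and 3717 counts in the MHCC97L libraries, 3627, 2892 and 3850 in those of MHCC97L-SRC, and 5112, 4923 and 4496 in those of MHCC97L-OXA. Each resistant line overlapped with MHCC97L, whereas every MHCC97L-SRC library lay below every MHCC97L-OXA library. The log2 fold change was -0.24 (SE 0.23) for MHCC97L-SRC and 0.14 (SE 0.20) for MHCC97L-OXA against MHCC97L, and -0.27 and 0.17 without MHCC97L replicate 1. Between the resistant lines it was -0.38 (SE 0.11), with an edgeR adjusted p of 0.0743 that became 0.0310 without MHCC97L-SRC replicate 2 and 0.0415 without MHCC97L-SRC replicate 3. In the 4 fits without another library it stayed above 0.05 and reached 0.300. MHCC97L-SRC replicate 2 was the library with a rho of 0.698 with GC content.

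HK2, the hexokinase most often linked to glycolytic tumors, lies on chromosome 2 from 74833981 to 74893359 on the + strand. It had 754, 485 and 340 counts in the MHCC97L libraries, 609, 472 and 700 in those of MHCC97L-SRC, and 991, 772 and 725 in those of MHCC97L-OXA. The highest MHCC97L value was that of replicate 1, the library with the strongest GC dependence. After TMM normalization each MHCC97L-OXA library lay above each MHCC97L library, but on the counts and in FPKM MHCC97L replicate 1 exceeded the lowest MHCC97L-OXA library. The log2 fold change was 0.29 (SE 0.34) for MHCC97L-SRC and 0.67 (SE 0.32) for MHCC97L-OXA against MHCC97L. Without MHCC97L replicate 1 these values were 0.61 and 1.04. The edgeR adjusted p for MHCC97L-OXA was 0.243, against 0.0235 without MHCC97L replicate 1 and 0.179 to 0.537 in the 5 fits without another library. MHCC97L-SRC lay below MHCC97L-OXA by a log2 fold change of -0.38 (SE 0.16, edgeR adjusted p = 0.232), without overlap of the libraries. HK3, the hexokinase of blood cells, had 2 counts in MHCC97L replicate 1 and 0 in the other 8 libraries, so no fold is given.

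**Figure D1:**
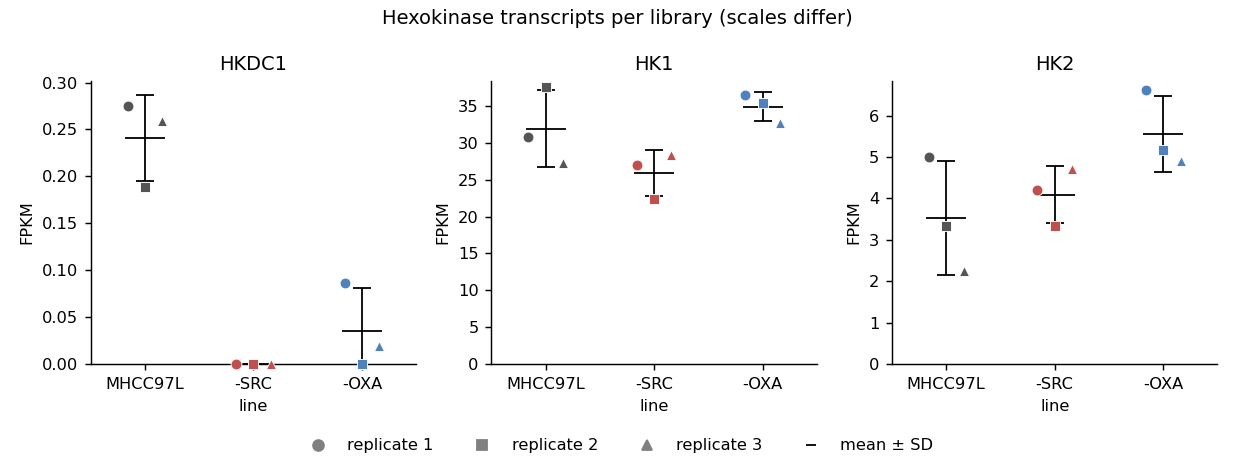
FPKM (vertical axes, linear and starting at 0, with a different scale in each panel) of HKDC1, HK1 and HK2 in the 3 lines; symbols are the 3 replicates, and bars are the mean ± SD. HKDC1 lies at 0.189 to 0.275 FPKM in MHCC97L and at 0 in the MHCC97L-SRC libraries, while HK1 lies at 22.4 to 37.6 FPKM across all libraries.

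Set beside each other in FPKM, HK1 made up 89.5% ± 3.54 (SD, n = 3) of the summed hexokinase FPKM in MHCC97L, 86.4% ± 0.639 in MHCC97L-SRC and 84.5%, 87.3% and 86.9% in the libraries of MHCC97L-OXA. HK2 made up 9.83% ± 3.49, 13.6% ± 0.639 and 13.7% ± 1.40 in the same order. The share of HKDC1 was 0.697% ± 0.213 in the MHCC97L libraries, 0% in those of MHCC97L-SRC and 0.0840% ± 0.104 in those of MHCC97L-OXA. HKDC1 thus made up less than 1% of the hexokinase FPKM in every library. The ratio of HK2 to HK1 FPKM was 0.162, 0.0889 and 0.0821 in MHCC97L replicates 1 to 3, so that replicate 1 alone reached the 0.146 to 0.181 of the resistant lines. The summed hexokinase FPKM was 35.7 ± 5.68 in the MHCC97L libraries, 30.0 ± 3.81 in those of MHCC97L-SRC and 40.5 ± 2.81 in those of MHCC97L-OXA, with overlap of each resistant line with MHCC97L. Without MHCC97L replicate 1 the shares of HK1, HK2 and HKDC1 in that line were 91.5%, 7.82% and 0.664%, and the remaining libraries summed to 41.1 and 29.8 FPKM. When counts were divided by the length of the longest transcript instead, HK1 made up 89.4% in MHCC97L-SRC and in MHCC97L-OXA and HK2 made up 10.6% in each.

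The genes around HKDC1 were read to see whether the absence of its counts extended along the chromosome. The 3 listed genes on its upstream side are SRGN, VPS26A and SUPV3L1, and those on its downstream side are HK1, TACR2 and TSPAN15. SRGN, which encodes the proteoglycan core protein serglycin, had 989 to 2257 counts in the MHCC97L libraries, 951 to 2327 in those of MHCC97L-SRC and 1262 to 1516 in those of MHCC97L-OXA. VPS26A, a retromer subunit, had 705, 144 and 361 counts in MHCC97L and 99 to 155 in the 6 resistant libraries, and SUPV3L1, a mitochondrial RNA helicase, had 1274, 369 and 308 against 153 to 359. For both, MHCC97L replicate 1 was far above the other libraries. TSPAN15, a tetraspanin, had 448 to 819 counts in the MHCC97L libraries, 1074 to 1138 in those of MHCC97L-SRC and 1058 to 1210 in those of MHCC97L-OXA. TACR2 had at most 4 counts in any library. Each neighbour other than TACR2 had at least 99 counts in each MHCC97L-SRC library. No tested neighbour had an edgeR adjusted p under 0.05, but only 2.13%, 0.953% and 4.64% of all genes did in the 3 comparisons, so nothing is read from that. The log2 fold changes of MHCC97L-SRC and MHCC97L-OXA against MHCC97L were -1.44 and -1.39 for VPS26A and -1.24 and -1.09 for SUPV3L1 (SE 0.52 to 0.55). They were 0.06 and -0.10 for SRGN and 0.82 and 0.76 for TSPAN15. Whether the region changed as a whole was not tested.

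The 5 genes whose log2 CPM followed that of HKDC1 most closely over the 9 libraries, out of 12232 genes, were DOCK3, KANK4, DKK1, HIST1H2BK and ADARB1, with Pearson's r of 0.976, 0.975, 0.971, 0.970 and 0.965. The 9 points are 3 libraries of each of 3 lines, so these values mainly describe an order of the lines and are given without a test. KANK4 had 274, 241 and 202 counts in the MHCC97L libraries, 2, 3 and 0 in those of MHCC97L-SRC, and 29, 24 and 17 in those of MHCC97L-OXA. DKK1, a secreted Wnt antagonist, had 1259, 688 and 536 counts in the MHCC97L libraries, 37, 20 and 42 in those of MHCC97L-SRC, and 179, 146 and 131 in those of MHCC97L-OXA. Both showed the order seen for HKDC1, with MHCC97L-OXA between the other lines. DOCK3 had 94 to 124 counts in MHCC97L, 43 to 54 in MHCC97L-OXA and 18 to 33 in MHCC97L-SRC.

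SLC2A1 encodes GLUT1, the basal glucose transporter of many cells and the most abundant transporter of the set in MHCC97L. It lies on chromosome 1 from 42925375 to 42959176 on the - strand. SLC2A1 had 2147, 3416 and 3702 counts in the MHCC97L libraries, 3561, 4542 and 2933 in those of MHCC97L-SRC, and 5498, 5342 and 5747 in those of MHCC97L-OXA. On the counts and in FPKM all MHCC97L-OXA libraries lay above all libraries of the other lines, and MHCC97L-SRC overlapped with MHCC97L. After TMM normalization MHCC97L-OXA still lay above MHCC97L but overlapped with MHCC97L-SRC. The log2 fold change against MHCC97L was 0.37 (SE 0.32) for MHCC97L-SRC and 0.83 (SE 0.26) for MHCC97L-OXA, and 0.17 and 0.68 without MHCC97L replicate 1. For MHCC97L-OXA the edgeR adjusted p was 0.181, against 0.00356 without MHCC97L replicate 1, 0.0395 without MHCC97L replicate 2 and 0.0211 with offsets for GC content and gene length. In the 4 fits without another library it was 0.223 to 0.474. Between the resistant lines the log2 fold change was -0.46 (SE 0.18, edgeR adjusted p = 0.202), which became -0.73 with an adjusted p of 0.00151 without MHCC97L-SRC replicate 2. In the 5 fits without another library the adjusted p stayed above 0.05 and reached 0.477. The library left out, MHCC97L-SRC replicate 2, had a rho of 0.698 with GC content.

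SLC2A3, which encodes the high-affinity transporter GLUT3, showed the largest fitted differences from MHCC97L among the transporters of the set that could be tested. It lies on chromosome 12 from 7919230 to 7936275 on the - strand. SLC2A3 had 1619, 1326 and 853 counts in the MHCC97L libraries, 2997, 1736 and 3570 in those of MHCC97L-SRC, and 4824, 3304 and 3130 in those of MHCC97L-OXA. Each resistant library exceeded each MHCC97L library, and the resistant lines overlapped with each other. The log2 fold change against MHCC97L was 1.22 (SE 0.31, edgeR adjusted p = 0.0843) for MHCC97L-SRC and 1.58 (SE 0.29, edgeR adjusted p = 0.0524) for MHCC97L-OXA. Both adjusted p-values fell under 0.05 when either of 2 parental libraries was left out, to 0.0277 and 0.00915 without MHCC97L replicate 1 and to 0.0185 and 0.0133 without MHCC97L replicate 2. In the 4 fits without another library they were 0.128 to 0.224 for MHCC97L-SRC and 0.162 to 0.270 for MHCC97L-OXA. Without MHCC97L replicate 1 the log2 fold changes were 1.41 and 1.82. Between the resistant lines the log2 fold change was -0.35 (SE 0.22). Of the 3866 windows of 50 bases in the longest protein-coding SLC2A3 transcript, 888 (23.0%) were also found in transcripts of its paralog SLC2A14. The counting could therefore split reads between these genes. SLC2A14 had 3 to 31 counts per library, so that its counts were few beside those of SLC2A3.

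SLC2A6 encodes GLUT6, a transporter held largely inside the cell, and was the gene of the set that was higher in MHCC97L-SRC than in MHCC97L-OXA. It lies on chromosome 9 from 133471095 to 133479137 on the - strand. SLC2A6 had 268, 370 and 445 counts in the MHCC97L libraries, 419, 501 and 520 in those of MHCC97L-SRC, and 340, 323 and 308 in those of MHCC97L-OXA. All MHCC97L-SRC libraries exceeded all MHCC97L-OXA libraries, with a log2 fold change of 0.68 (SE 0.16, edgeR adjusted p = 0.0432). The adjusted p was 0.102 without MHCC97L-SRC replicate 1 and 0.127, 0.224 and 0.197 without MHCC97L-OXA replicates 1, 2 and 3, while the log2 fold change stayed between 0.57 and 0.78 when any 1 library was left out. Against MHCC97L the log2 fold change was 0.52 (SE 0.34, edgeR adjusted p = 0.325) for MHCC97L-SRC, whose libraries lay above those of MHCC97L after TMM normalization but not on the counts or in FPKM. For MHCC97L-OXA it was -0.17 (SE 0.33, edgeR adjusted p = 0.761), and without MHCC97L replicate 3 it turned to 0.01. Without MHCC97L replicate 1 these values were 0.35 and -0.28.

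The remaining transporters were barely detected. SLC2A10, which encodes GLUT10, had 2, 0 and 0 counts in the MHCC97L libraries, 4, 0 and 1 in those of MHCC97L-SRC, and 6, 0 and 3 in those of MHCC97L-OXA, so the lines overlapped around the detection limit. SLC2A2, which encodes the liver transporter GLUT2, had 0 counts in all 9 libraries, which allows at most 0.0684 to 0.0711 CPM per line. Of the 9 genes, 5 had more than 3 counts in every library, namely HK1, HK2, SLC2A1, SLC2A3 and SLC2A6.

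**Figure D2:**
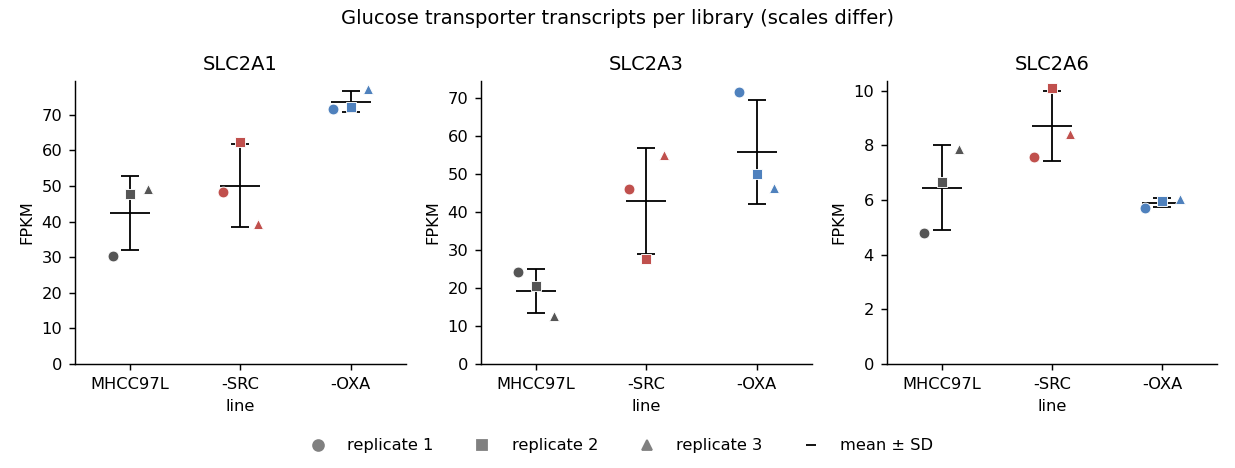
FPKM (vertical axes, linear and starting at 0, with a different scale in each panel) of SLC2A1, SLC2A3 and SLC2A6 in the 3 lines; symbols are the 3 replicates, and bars are the mean ± SD. MHCC97L-OXA lies highest for SLC2A1 at 71.7 to 77.2 FPKM, and for SLC2A3 all resistant libraries lie above the 12.7 to 24.2 FPKM of MHCC97L.

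In FPKM the order within MHCC97L was SLC2A1 (42.4 ± 10.4, SD, n = 3), HK1 (31.9 ± 5.24), SLC2A3 (19.2 ± 5.89), SLC2A6 (6.44 ± 1.56), HK2 (3.53 ± 1.39) and HKDC1 (0.241 ± 0.0459). SLC2A1 and HK1 overlapped between libraries, as did SLC2A6 and HK2. In MHCC97L-SRC SLC2A1 stood at 50.1 ± 11.7, SLC2A3 at 42.8 ± 13.9 and HK1 at 25.9 ± 3.13, so that SLC2A3 lay above HK1 on average, with 1 of its libraries inside the range of HK1. In MHCC97L-OXA SLC2A1 stood at 73.7 ± 2.99, SLC2A3 at 55.8 ± 13.6 and HK1 at 34.9 ± 1.98, with every SLC2A3 library above every HK1 library. The summed FPKM of the 5 transporters was 59.5 to 74.9 in the MHCC97L libraries, 100.2 to 102.6 in those of MHCC97L-SRC and 128.2 to 148.9 in those of MHCC97L-OXA. The lines did not overlap in this sum, and since the genes were chosen with results known no test is attached to it. The ratio of SLC2A3 to SLC2A1 FPKM was 0.496 ± 0.274 in the MHCC97L libraries, 0.929 ± 0.477 in those of MHCC97L-SRC and 0.761 ± 0.208 in those of MHCC97L-OXA, so the lines overlapped in it.

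Across the whole set, 6 of the 9 genes passed the filter on low counts in each comparison with MHCC97L and 5 between the resistant lines; HKDC1 passed through its counts in MHCC97L. In the comparison of MHCC97L-SRC with MHCC97L, 1 of the 6, HKDC1, had an edgeR adjusted p under 0.05, against 2.13% of all 12037 genes tested, and nothing is read from that count. That call was lost without MHCC97L replicate 3 (edgeR adjusted p = 0.0608) and without MHCC97L-SRC replicate 3 (0.0529), and without MHCC97L replicate 1 the adjusted p was 0.00717. After TMM normalization 3 of the 6 genes did not overlap between these lines, against 29.8% of all genes tested. In the comparison of MHCC97L-OXA with MHCC97L, 0 of the 6 had an edgeR adjusted p under 0.05, against 0.953% of 12064 genes. DESeq2's Wald test gave 2 at that threshold. Here 4 of the 6 did not overlap, against 28.1% of all genes tested. An unadjusted edgeR p under 0.05 was found for 2 of 6, 3 of 6 and 4 of 5 genes in the 3 comparisons. The shares of all genes tested were 29.5%, 22.4% and 19.5%. With an unadjusted p under 0.05 and a log2 fold change beyond 1 in either direction, the counts were 2 of 6, 2 of 6 and 0 of 5 in the 3 comparisons, against 24.6%, 16.2% and 4.01% of all genes tested. In MHCC97L-OXA against MHCC97L, HKDC1 had an edgeR adjusted p of 0.0726, which was 0.0312 without MHCC97L replicate 1 and 0.0184 without MHCC97L replicate 2, and 0.192 to 0.403 in the 4 fits without another library. Between the resistant lines 1 of the 5, SLC2A6, had an edgeR adjusted p under 0.05, against 4.64% of 11994 genes, and 3 of the 5 did not overlap, against 27% of all genes tested. The median log2 fold change of the tested genes of the set was 0.33 and 0.41 in the comparisons of MHCC97L-SRC and MHCC97L-OXA with MHCC97L, beside -0.16 and -0.19 over all genes tested. Both comparisons use the same 3 MHCC97L libraries.

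**Figure D3:**
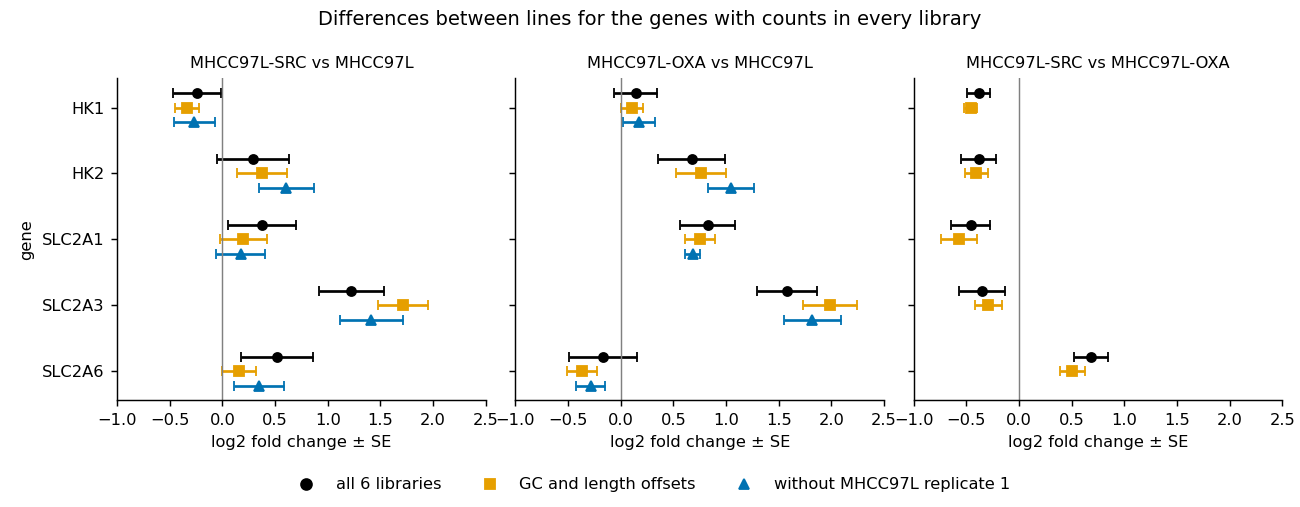
Log2 fold change ± SE (horizontal axes) of the 5 genes with more than 3 counts in every library, in the 3 comparisons, with all libraries of the comparison, with offsets for GC content and gene length, and without MHCC97L replicate 1. SLC2A3 lies at 1.22 and 1.58 against MHCC97L, and its offset values are 1.71 and 1.99, while HK1 stays between -0.34 and 0.17 in the comparisons with MHCC97L.

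The other genes of glucose metabolism were read from 6 textbook lists of 83 genes, of which 67 were tested in each comparison. In MHCC97L-SRC against MHCC97L, 1 of the 67 was higher and 0 were lower at an edgeR adjusted p under 0.05. In MHCC97L-OXA against MHCC97L these numbers were also 1 and 0, and between the resistant lines 1 was higher and 2 were lower in MHCC97L-SRC. Unadjusted p-values under 0.05 were found for 22, 16 and 21 of the 67 genes, against 29.5%, 22.4% and 19.5% of all genes tested.

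Among the 11 other transporter genes, 6 were tested and 0 passed in any comparison. The most abundant of them, SLC2A8, had 172 to 338 counts in the MHCC97L libraries, 206 to 290 in those of MHCC97L-SRC and 275 to 304 in those of MHCC97L-OXA. The fructose transporter SLC2A5 had 161 to 199 counts in the MHCC97L libraries, 68 to 71 in those of MHCC97L-SRC and 57 to 109 in those of MHCC97L-OXA, which did not overlap with MHCC97L, with log2 fold changes of -1.26 (SE 0.39, edgeR adjusted p = 0.111) and -1.16 (SE 0.40, edgeR adjusted p = 0.196). SLC2A11 had 34 to 89 counts per library. Of the 9 genes of glucose phosphorylation and release, 7 were tested and 0 passed. VDAC1 and VDAC2, the mitochondrial channels to which HK1 and HK2 dock, had 3216 to 10434 and 2039 to 3674 counts per library, and G6PC3, the widely expressed glucose-6-phosphatase, had 1627 to 3064. MHCC97L replicate 1 held both the highest VDAC1 and the lowest G6PC3 count. In the gluconeogenesis list 2 of 5 genes were tested and 0 passed, PC with 1862 to 3555 counts and PCK2 with 453 to 832 counts in the MHCC97L libraries, 1316 to 1668 in those of MHCC97L-SRC and 1731 to 1992 in those of MHCC97L-OXA; FBP2, next in FPKM, had at most 1 count.

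In the glycolysis list, ENO2, the neuronal form of enolase, was higher in MHCC97L-OXA than in MHCC97L. It had 370, 491 and 488 counts in the MHCC97L libraries, 1163, 1456 and 802 in those of MHCC97L-SRC, and 1537, 1508 and 1563 in those of MHCC97L-OXA. The log2 fold change was 1.76 (SE 0.24, edgeR adjusted p = 0.0271) for MHCC97L-OXA and 1.47 (SE 0.35, edgeR adjusted p = 0.0769) for MHCC97L-SRC. The former adjusted p was 0.127 without MHCC97L replicate 3 and 0.209, 0.220 and 0.200 without MHCC97L-OXA replicates 1, 2 and 3. Without MHCC97L replicate 1 the log2 fold change was 1.70 with an adjusted p of 0.000669. The other 20 tested genes of that list did not pass in any comparison.

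Of the 18 genes of the pentose phosphate, glycogen and hexosamine branches, 17 were tested and 0 passed in any comparison. Its 3 genes highest in FPKM were TALDO1 (transaldolase) and TKT (transketolase), which return pentose phosphates to glycolysis, and PGD, an enzyme of the oxidative pentose phosphate steps. TALDO1 had 8186 to 14407 counts per library and PGD 9355 to 16363. After TMM normalization both genes overlapped between the lines in each comparison. On the counts, the lowest PGD value of MHCC97L, 11200, lay just above the highest of MHCC97L-OXA, 11143, and the highest TALDO1 value of MHCC97L-SRC, 10541, just below the lowest of MHCC97L-OXA, 10601. TKT had 17855 to 30528 counts in the MHCC97L libraries, 28752 to 33933 in those of MHCC97L-SRC and 23948 to 25186 in those of MHCC97L-OXA. The resistant lines did not overlap in TKT, with a log2 fold change of 0.45 for MHCC97L-SRC against MHCC97L-OXA (SE 0.13, edgeR adjusted p = 0.0814).

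Of the regulators, MLXIPL, EPAS1 and HIF1A passed the test between the resistant lines. MLXIPL encodes ChREBP, the glucose-sensing transcription factor, and had 218, 230 and 260 counts in the MHCC97L libraries, 671, 688 and 802 in those of MHCC97L-SRC, and 345, 350 and 335 in those of MHCC97L-OXA. The lines did not overlap, and MHCC97L-SRC was higher than MHCC97L-OXA by a log2 fold change of 1.18 (SE 0.14, edgeR adjusted p = 0.00135) and higher than MHCC97L by 1.72 (SE 0.30, edgeR adjusted p = 0.0255). The call against MHCC97L was lost without MHCC97L replicate 3 (edgeR adjusted p = 0.105) and without MHCC97L-SRC replicate 1, 2 or 3 (0.148, 0.142 and 0.154), and without MHCC97L replicate 1 the log2 fold change was 1.66 with an adjusted p of 0.00436. EPAS1 and HIF1A encode the hypoxia-inducible factors HIF-2α and HIF-1α, and HIF-1α activates SLC2A1, SLC2A3 and HK2 in many cells. Protein levels and activity of these factors were not measured here. EPAS1 had 8928, 9963 and 7971 counts in the MHCC97L libraries, 4324, 3106 and 4941 in those of MHCC97L-SRC, and 8596, 9100 and 7788 in those of MHCC97L-OXA, and was lower in MHCC97L-SRC than in MHCC97L-OXA by a log2 fold change of -0.95 (SE 0.13, edgeR adjusted p = 0.00308). HIF1A had 2313, 300 and 1536 counts in the MHCC97L libraries, 205, 206 and 196 in those of MHCC97L-SRC, and 340, 481 and 649 in those of MHCC97L-OXA. The MHCC97L libraries differed widely from each other in HIF1A, and MHCC97L-SRC was lower than MHCC97L-OXA by a log2 fold change of -1.17 (SE 0.24, edgeR adjusted p = 0.0235), with an adjusted p of 0.0931 without MHCC97L-SRC replicate 1 and of 0.104 and 0.105 without MHCC97L-OXA replicates 2 and 3.

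**Figure D4:**
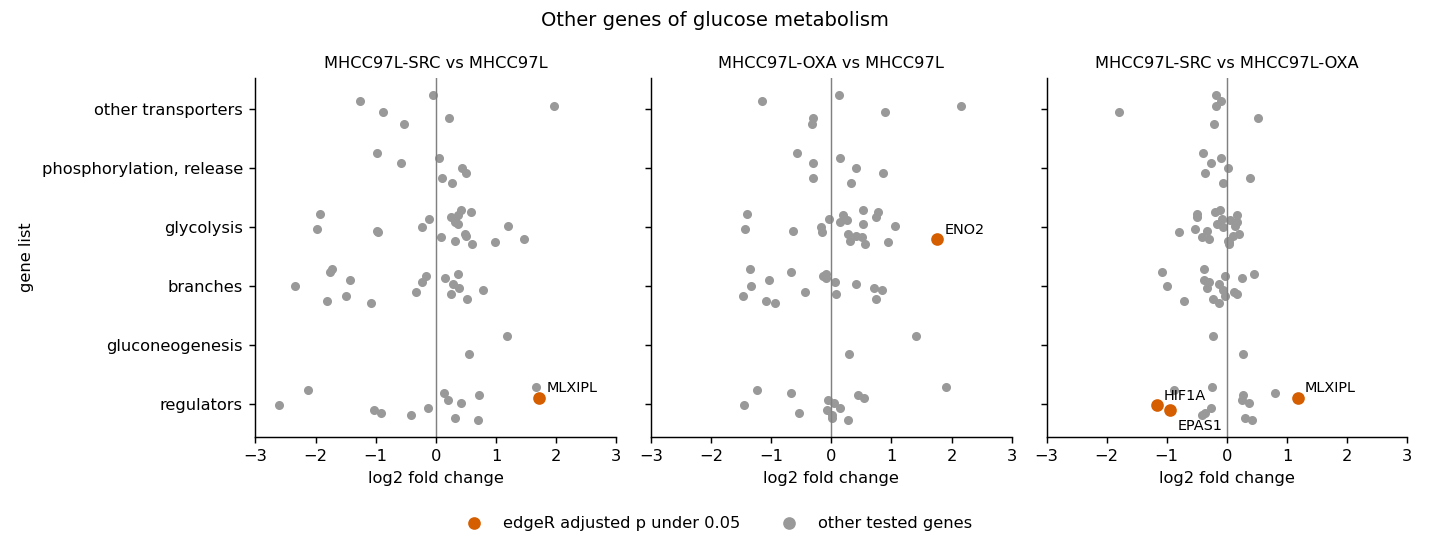
Log2 fold change (horizontal axes) of the 67 tested genes of the 6 lists (vertical axis) in the 3 comparisons, with genes at an edgeR adjusted p under 0.05 in orange and named. MLXIPL is the single named gene for MHCC97L-SRC and ENO2 for MHCC97L-OXA, and HIF1A, EPAS1 and MLXIPL are named between the resistant lines.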

How the data were processed

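RNA of MHCC97L, MHCC97L-SRC and MHCC97L-OXA was sequenced from stranded poly(A) selected libraries. The authors deposited raw, unnormalized read counts of 20030 genes in 9 libraries. The FPKM values (fragments scaled by transcript length and by depth) were deposited by the authors beside them. The submitters' processing notes name Trimmomatic 0.36, HISAT2 2.2.1.0 and GRCh38.p12; the counting program is not given in the sources used here. In every library 245 to 297 genes had a count but an FPKM of 0. Intervals and detection limits cover counting error alone and leave out the variation between libraries, whose counts were pooled for the intervals. Reads that PCR copied from one molecule could not be recognized without molecular identifiers, and the intervals do not allow for them.

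Libraries were grouped by the labels. Lines were compared pairwise, 6 libraries at a time, with edgeR (quasi-likelihood F test) on deposited counts, filterByExpr (minimum count 10), TMM normalization and Benjamini-Hochberg adjustment over all genes tested; standard errors were taken as log2 fold change over the root of F, and log2 CPM used a prior count of 2. The members were chosen, and the lists written, with earlier results of these data known. The genes of the lists of glucose metabolism were taken from textbook pathway membership and not by their values. Named are all members, the list genes with an adjusted p under 0.05 or else the 3 highest in FPKM per list, the 5 genes most correlated with HKDC1, and 3 neighbours on each side of it; SLC2A14 was added after its values were seen. Some genes of glucose metabolism are not reported here. Lists of hepatocyte, epithelial, fibroblast, endothelial and leukocyte markers were used to check the cell type.

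Alternatives were DESeq2's Wald test, other size factors, other filters, a block on the replicate number, a single fit of all libraries, limma-trend on log2(FPKM + 1) and log2(FPKM + 0.1), splines of GC content and gene length (5 degrees of freedom each) as offsets, another threshold, and leaving out each library; that the pooled HKDC1 ratio and bound were also computed without a library was decided after seeing the data. Gene positions and transcripts came from GENCODE release 29 and promoters from RefSeq. The test was also run on simulated counts, which varied less than the libraries in the comparisons with MHCC97L. Genes as scarce as HKDC1 were not among those changed in the simulation. It therefore does not check the test for those comparisons or for HKDC1. Fits ran in R 4.3.3 with edgeR 4.0.16, with limma 3.58.1 and with DESeq2 1.42.0. Tables and plots were made in Python 3.11.15, using pandas 2.3.3, while intervals came from SciPy 1.17.1 and drawings from matplotlib 3.10.9.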

Additional observations from a re-analysis of the deposited data

Results flagged for a closer look

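For 4 of the tested genes of the set and of the lists of glucose metabolism, MHCC97L-SRC and MHCC97L-OXA had different levels. The test of that difference was edgeR's quasi-likelihood test between these lines. The genes most like HKDC1, among them DKK1 and KANK4, were not part of this count. The log2 fold change of MHCC97L-SRC minus MHCC97L-OXA was 0.68 for the transporter SLC2A6 and 1.18 for MLXIPL, which were higher in MHCC97L-SRC, and -0.95 for EPAS1 and -1.17 for HIF1A, which were lower. All 3 libraries of one line lay on one side of all 3 libraries of the other for each of these genes, as for 27% of all genes tested. The genes were picked by the test between these same libraries, so the lack of overlap adds no support. Of 18 alternative fits, 7 gave an adjusted p under 0.05 for SLC2A6, 12 for HIF1A, and 18 each for EPAS1 and MLXIPL. HKDC1 was not tested between the resistant lines.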

How the results depend on the processing

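In the comparison of MHCC97L-SRC with MHCC97L, the number of members with an adjusted p under 0.05 was 1 in the fit reported. It was 2 with DESeq2's Wald test, no filter, the replicate block, all 9 libraries in one fit, GC and length offsets, or the threshold of an unadjusted p under 0.05 and a log2 fold change beyond 1 either way. It was 0 with limma-trend on log2(FPKM + 1) and with the offsets together with the replicate block, and 0 to 2 when 1 library was left out. Of the 67 pathway genes the number was 1, against 17 with DESeq2's test, 2 with DESeq2's size factors and with log2(FPKM + 0.1), 4 with no filter, 7 with the replicate block, 16 in one fit, 11 with offsets, 18 at the unadjusted threshold, 0 with log2(FPKM + 1) with or without the filter and with offsets and block, and 0 to 16 leaving out 1 library.

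In the comparison of MHCC97L-OXA with MHCC97L, 0 members were counted in the fit reported. The count was 2 with DESeq2's test, in one fit and at the unadjusted threshold, 1 with DESeq2's size factors, no filter, the replicate block and log2(FPKM + 0.1), 3 with offsets with or without the block, and 0 to 4 leaving out 1 library. Of the pathway genes 1 was counted, against 7 with DESeq2's test, 2 with no filter and with the replicate block, 3 in one fit, 11 with offsets, 6 with offsets and block, 10 at the unadjusted threshold, and 0 to 21 leaving out 1 library. Between the resistant lines 1 member was counted, against 0 with total counts, the replicate block, one fit, each limma-trend fit and the unadjusted threshold, 2 with offsets, and 0 to 3 leaving out 1 library. Of the pathway genes 3 were counted, against 5 with DESeq2's test, with the replicate block and with log2(FPKM + 1) with or without the filter, 6 with no filter, 10 with offsets, and 2 to 18 leaving out 1 library. The one value that changed direction was that of SLC2A6 in MHCC97L-OXA against MHCC97L, which ranged from -0.28 to 0.014 when 1 library was left out and was above 0 without MHCC97L replicate 3. Of 306 alternative values of the members' log2 fold changes, 257 kept their direction and side of the threshold, 15 lost and 33 gained the threshold. The causes were not tested.

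Libraries with the same replicate number correlated in their deviations at -0.631 to 0.211 between MHCC97L-SRC and MHCC97L, at -0.208 to 0.417 between MHCC97L-OXA and MHCC97L, and at -0.271 to 0.0286 between the resistant lines. Libraries with unlike numbers correlated at -0.516 to 0.642, -0.349 to 0.434 and -0.191 to 0.259 in the same order. Deviations from the mean of 3 libraries depend on each other, so these values cannot decide whether the numbers pair the libraries. With the block, SLC2A3 passed the threshold in MHCC97L-SRC and in MHCC97L-OXA (edgeR adjusted p = 0.0250 and 0.0360) and SLC2A6 did not between the resistant lines (0.111). A fit without a library assumes that the remaining pair varies like the other group. The depth limits HKDC1, SLC2A10, HK3 and SLC2A2, which lay near or under 3 counts per library in at least one line.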
